A study of Mus musculus with 12 samples.

Results

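A set of 9 genes of intestinal antibody output is described here across mouse small intestine. They are Igha, Igkc, Iglc1 and Iglc2, which encode constant regions of immunoglobulin chains, Jchain, the joining chain, the plasma cell factors Mzb1, Sdc1 and Tnfrsf17, and Pigr, the epithelial receptor that carries the antibody to the gut lumen. They were taken by symbol, 1 row each, and make up 9 of the 55484 genes in the expression table. RNA was sequenced from the small intestine in 12 libraries of 4 groups, with 3 libraries each. Control is the wild type control of the labels. Melphalan received melphalan, an alkylating drug used in chemotherapy. Mel+MSC and MSC+Mel received melphalan and mesenchymal stem cells, which the series title gives as human cells from umbilical cord. Dose, time, age, strain and sex are not in the labels, nor is what the order within the 2 combined names stands for. Whether libraries came from different animals is not labelled either, so p-values speak only for the spread from library to library, part of which may be technical.

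Immunoglobulin A is the main antibody of gut secretions. Plasma cells of the lamina propria assemble it from alpha heavy chains (Igha) and kappa or lambda light chains (Igkc, Iglc1, Iglc2), and the joining chain links the units into dimers. The polymeric immunoglobulin receptor, Pigr, binds these dimers at the base of an epithelial cell, carries them across it and releases them into the lumen together with its own outer part. Mzb1 is a chaperone of the endoplasmic reticulum in B cells and plasma cells that aids antibody assembly. Tnfrsf17 is the survival receptor BCMA of plasma cells. Sdc1, syndecan 1 or CD138, is a surface marker of plasma cells that epithelial cells also express.

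The lambda constant regions show how near to each other some of these rows are. The lines give 120 aligned coding bases of each gene from the GENCODE M21 transcripts (GRCm38), 5′ to 3′ on the minus strand, with capitals at the positions where the 3 genes are not all alike. They lie at chr16:19061949-19062068 for Iglc1, chr16:19198730-19198849 for Iglc2 and chr16:19065559-19065678 for Iglc3, a lambda gene outside the 9.
Iglc1: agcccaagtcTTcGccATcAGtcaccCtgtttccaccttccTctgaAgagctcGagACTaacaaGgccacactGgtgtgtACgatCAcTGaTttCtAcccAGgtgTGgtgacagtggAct
Iglc2: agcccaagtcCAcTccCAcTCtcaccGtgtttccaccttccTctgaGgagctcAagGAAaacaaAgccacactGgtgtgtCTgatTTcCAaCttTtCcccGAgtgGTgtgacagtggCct
Iglc3: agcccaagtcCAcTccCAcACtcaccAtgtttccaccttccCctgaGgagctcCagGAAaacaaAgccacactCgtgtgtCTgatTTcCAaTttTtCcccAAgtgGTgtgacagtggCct
Within these bases Iglc2 and Iglc3 differ at 7 positions, while Iglc1 differs from Iglc2 at 28 and from Iglc3 at 27. Over 311 coding bases Iglc2 and Iglc3 are 96.5% identical, with 11 differing bases. How the authors' counting divided reads between this pair is not given, so the levels of Iglc2 are uncertain. Iglc1 was not compared with Iglc4, a further lambda row, so whether its levels share such uncertainty was not tested.

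Upstream sequence is shown for Jchain and Pigr, the gene of the antibody and the gene of its receptor, because Jchain followed Igha across libraries and Pigr did not. The lines give the 250 bases before the annotated start from RefSeq (GRCm38.p6), at chr5:88527898-88528147 on the minus strand for Jchain and chr1:130826434-130826683 on the plus strand for Pigr. Capitals mark the motif matches.
Jchain: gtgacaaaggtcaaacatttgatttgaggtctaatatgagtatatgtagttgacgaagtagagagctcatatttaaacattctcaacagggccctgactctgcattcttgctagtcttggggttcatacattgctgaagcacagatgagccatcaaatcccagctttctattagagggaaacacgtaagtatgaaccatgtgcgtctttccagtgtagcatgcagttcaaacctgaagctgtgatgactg
Pigr: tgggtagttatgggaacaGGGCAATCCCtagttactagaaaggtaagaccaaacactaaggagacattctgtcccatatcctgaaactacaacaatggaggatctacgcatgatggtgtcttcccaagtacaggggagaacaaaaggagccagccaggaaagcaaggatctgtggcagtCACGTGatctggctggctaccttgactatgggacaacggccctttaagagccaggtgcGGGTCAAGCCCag
The motifs searched on both strands were the octamer ATGCAAAT, the core TGACGT, the interferon response frame (GAAA, 2 bases of any kind, GAAA), the NF-kB frame (GGG, 5 bases of any kind, CC) and, added after the sequence was seen, the E-box CACGTG. In the 300-base windows, which add 50 bases after the start, they occur in 1.74%, 7.51%, 3.44%, 50.8% and 7.15% of 32851 promoters. The Pigr window held the NF-kB frame 232 bases before the start, on both strands, and again 13 bases before it, overlapping a match on the other strand 12 bases before it, and the E-box 71 bases before the start. In the Jchain window these letters did not occur. Of the other promoters in the table, Sdc1 held the NF-kB frame 7 times and Tnfrsf17 the interferon frame 101 bases before its start. Such matches describe letters and say nothing of binding.

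Values are FPKM as deposited, fragments scaled to transcript length and, between libraries, by the authors' processing. Read depth is unknown, and errors come only from the 3 libraries within each group. Library sums of FPKM ran from 516851 to 796980, with 11529 to 12703 genes at 1 FPKM or more. Fold changes are on the scale log2(FPKM + 1), which understates the change of genes as low as Tnfrsf17. The labelled tissue showed in all 11 epithelial marker genes, which were above 0 in every library with summed levels of 5229 to 9873 FPKM. Of 6 pancreatic markers, Prss1, Pnlip and Amy2a5 were listed at 0 in every library, Cpa1 reached 0.0418 FPKM and Ctrb1 1.19, and Cela1 stood at 9.62 to 33.8 FPKM. Melphalan 1 held the highest sum of 3 fat markers, 203.9 FPKM beside 16.7 to 47.7 in the other libraries. In bulk tissue, fewer plasma cells and less RNA per plasma cell cannot be told apart.

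Igha, the alpha heavy chain constant region (ENSMUSG00000095079, chromosome 12, 113254830 to 113260236, minus strand), was among the most abundant of the 9. Its FPKM was 1908, 1710 and 3621 in Control libraries 1 to 3, 310.0, 2635 and 2380.4 in Melphalan, 642, 624 and 516 in Mel+MSC, and 935, 2066 and 1990 in MSC+Mel. All Mel+MSC libraries lay below all Control and all MSC+Mel libraries, while the Melphalan libraries held both the lowest value of the 12 and 2 of the 3 highest. Group means were 2413 ± 1051 (SD, n = 3) in Control, 1775 ± 1275 in Melphalan, 594 ± 68.3 in Mel+MSC and 1663 ± 632 in MSC+Mel. The SD was 11.5% of the mean in Mel+MSC and 71.8% in Melphalan.

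Igkc, the kappa light chain constant region (ENSMUSG00000076609, chromosome 6, 70726435 to 70726966, plus strand), had FPKM values of 2711, 3305 and 6345 in the Control libraries, 412, 5660 and 3759 in the Melphalan libraries, 734, 1541 and 1034 in Mel+MSC, and 2407, 4287 and 4708 in MSC+Mel. The order was that of Igha at its ends, with Melphalan 1 lowest, Control 3 highest and no overlap of Mel+MSC with Control or MSC+Mel. Iglc1, the most abundant lambda constant region (chromosome 16, 19061618 to 19062071, minus strand), gave 306, 158 and 440 FPKM in Control, 17.6, 523 and 203 in Melphalan, 61.9, 146 and 77.9 in Mel+MSC, and 115, 129 and 306 in MSC+Mel. Here Mel+MSC lay below Control, and its highest library overlapped MSC+Mel. Iglc2 (chromosome 16, 19198396 to 19200351, minus strand) gave 18.8, 22.0 and 36.9 FPKM in Control, 0.486, 157 and 37.3 in Melphalan, 12.3, 29.0 and 0.982 in Mel+MSC, and 16.3, 16.1 and 14.7 in MSC+Mel. Its highest value was 324 times its lowest, the widest range of the 9 genes, and both ends lay in the Melphalan group.

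**Figure D1:**
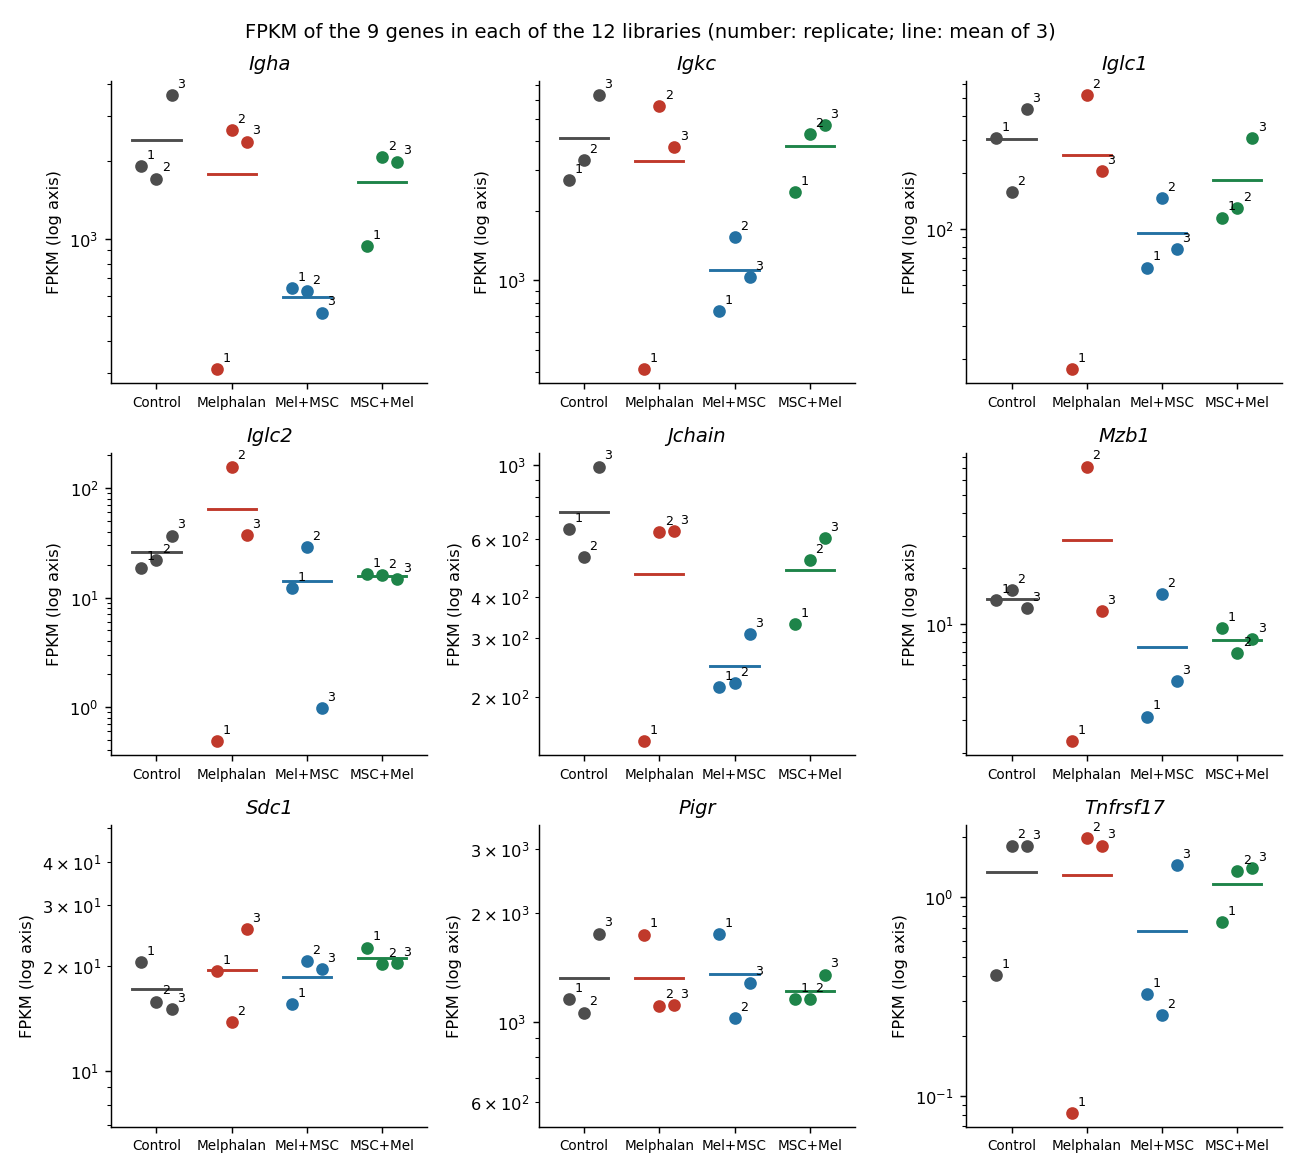
FPKM of the 9 genes (log axis) in each of the 12 libraries, with the replicate number beside each point and a line at the mean of 3. For Igha, Igkc and Jchain the Mel+MSC points lie below all Control and MSC+Mel points, Melphalan 1 is the lowest point for 7 of the 9 genes, and the Pigr points of the 4 groups overlap.

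Jchain (chromosome 5, 88519809 to 88527891, minus strand) stood at 640.4, 527 and 989 FPKM in Control, 147, 627 and 633 in Melphalan, 214, 220.0 and 308 in Mel+MSC, and 331, 515 and 601 in MSC+Mel. As for Igha, the Mel+MSC libraries lay below those of Control and MSC+Mel, and Melphalan 1 was lowest. Its highest value was 6.75 times its lowest, beside 11.7 for Igha and 15.4 for Igkc.

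Mzb1, the chaperone (chromosome 18, 35647267 to 35649367, minus strand), gave 13.4, 15.2 and 12.1 FPKM in Control, 2.31, 71.0 and 11.7 in Melphalan, 3.15, 14.5 and 4.91 in Mel+MSC, and 9.44, 6.91 and 8.29 in MSC+Mel. Melphalan 2 stood far above the other 11 libraries, and all MSC+Mel libraries lay below all Control libraries. Tnfrsf17, the BCMA receptor (chromosome 16, 11313812 to 11320074, plus strand), was near the limit of the filter at 0.404, 1.81 and 1.80 FPKM in Control, 0.0817, 1.97 and 1.81 in Melphalan, 0.324, 0.255 and 1.45 in Mel+MSC, and 0.750, 1.35 and 1.40 in MSC+Mel. No pair of groups was separated for this gene. Sdc1, syndecan 1 (chromosome 12, 8771323 to 8793715, plus strand), gave 20.6, 15.8 and 15.1 FPKM in Control, 19.4, 13.8 and 25.6 in Melphalan, 15.5, 20.8 and 19.6 in Mel+MSC, and 22.6, 20.3 and 20.4 in MSC+Mel. Its highest value was 1.85 times its lowest, and Melphalan 2, the highest library for Mzb1, was the lowest for Sdc1.

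Pigr, the receptor (chromosome 1, 130826684 to 130852249, plus strand), stood at 1153, 1059 and 1750.4 FPKM in Control, 1739, 1108 and 1113 in Melphalan, 1745, 1025 and 1282 in Mel+MSC, and 1153, 1154 and 1349 in MSC+Mel. It had the narrowest range of the 9, 1.71 times from lowest to highest, and 1 library each of Control, Melphalan and Mel+MSC made up the upper 3. Group means ran from 1219 ± 113 in MSC+Mel to 1351 ± 365 in Mel+MSC. On this length-scaled measure Pigr was above Igha in 5 libraries, namely Melphalan 1, the 3 Mel+MSC libraries and MSC+Mel 1.

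Taking the 9 genes by library, Melphalan 1 was the lowest of the 12 for 7 of them, all but Sdc1 and Pigr. Control 3 was the highest for 4 (Igha, Igkc, Jchain and Pigr), and Melphalan 2 for 4 others (Iglc1, Iglc2, Mzb1 and Tnfrsf17). Mel+MSC 1, 2 and 3 were among the 4 lowest libraries for 8, 5 and 6 of the 9 genes, and each MSC+Mel library for 1.

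Melphalan against Control asked what the drug group differed in. By limma's moderated test with Benjamini-Hochberg adjustment over the 12847 genes tested, 0 of the 9 genes passed an adjusted p of 0.05, where 1.33% of all genes tested passed (171 genes), and 0 of the 9 had an unadjusted p under 0.05. The count over all genes fell to 9 without Control 1, 18 without Control 2 and 38 without Melphalan 3, and rose to 409 without Melphalan 2 and 420 without Control 3. With the replicate number as a block it was 73, and 0 of the 9 were called (Igha adjusted p = 0.487, Jchain 0.321 in limma). The fitted log2 change was -0.87 for Igha (95% confidence interval -2.40 to 0.67, adjusted p = 0.548), -0.84 for Jchain (-1.95 to 0.27, adjusted p = 0.407) and -0.01 for Mzb1 (-1.87 to 1.85). No gene of the 9 was separated between the groups, where 19.5% of all genes were. Melphalan 1 decided the sign for the chains: without it Igha stood at 0.14, Igkc at 0.26 and Iglc1 at 0.24, and without Melphalan 2 they stood at -1.41, -1.63 and -2.17.

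Mel+MSC against Control gave the lowest fitted values. The fit passed 0 of the 9 genes and 0 of all genes tested (0% called), and 3 of the 9 had an unadjusted p under 0.05 in limma, where 5.4% of all genes had. These were Jchain (log2 -1.504, SE 0.51, adjusted p = 0.806), Igha (-1.94, SE 0.70, adjusted p = 0.848) and Igkc (-1.87, SE 0.81, adjusted p = 0.923). The libraries of Mel+MSC lay below those of Control for 4 of the 9, these 3 and Iglc1, where 5.07% of all genes tested were so placed. Igha went with Igkc and with Jchain over the 12 libraries (Pearson r = 0.956 and 0.967), so such counts are not counts of separate tests. The median over the 9 was -1.48 beside 0.01 over all genes. That median is the value of Iglc2, which stood at -0.37 without Mel+MSC 3, and the median over the 9 was then -0.86. Leaving out any 1 library of either group kept Igha between -2.15 and -1.61 and Jchain between -1.70 and -1.25. Of the epithelial markers 10 of 11 were fitted above 0 in the same comparison (median 0.23, summed levels 5229 to 9873 FPKM in Mel+MSC and 5576 to 7460.0 in Control), and 0 of 6 T cell markers were (median -0.45, 10.8 to 24.0 and 17.5 to 39.8 FPKM). Their part in the result was not tested.

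MSC+Mel against Mel+MSC set the 2 combined groups beside each other. Again 0 of the 9 genes passed the adjusted threshold, where 0.00778% of all genes did (1 gene, and 398 without Mel+MSC 3), and 1 of the 9 had an unadjusted p under 0.05, where 12.2% of all genes had. That gene was Igkc (log2 1.79, 95% confidence interval 0.02 to 3.56, adjusted p = 0.411 in limma). Igha followed with 1.40 (-0.13 to 2.94, adjusted p = 0.445) and Jchain with 0.94 (-0.18 to 2.05, adjusted p = 0.475). These 3 had every MSC+Mel library above every Mel+MSC library, where 11.7% of all genes tested did. As these 3 went together across libraries, they are not 3 separate tests. The median over the 9 was 0.85 beside -0.01 over all genes, and 0.44 without MSC+Mel 3. Epithelial markers were fitted below 0 for all 11 (median -0.23, summed levels 5339 to 6061 FPKM in MSC+Mel) and macrophage markers above 0 for all 5 (median 0.89, 76.2 to 97.0 FPKM in MSC+Mel and 26.5 to 133.5 in Mel+MSC). Smooth muscle markers were fitted below 0 for all 4 (median -0.55), with summed levels of 143 to 161 FPKM in MSC+Mel, 160 to 322 in Mel+MSC and 203.5 to 319 in Control. Their mean log2(FPKM + 1) was 5.07 to 5.26 in MSC+Mel, below the 5.28 to 6.18 of Mel+MSC and the 5.49 to 6.19 of Control. The part of these markers in the result was not tested.

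Against Melphalan, the Mel+MSC libraries gave 0 of 9 genes called, where 0.156% of all genes were, and the MSC+Mel libraries gave 0 of 9, where 1.24% were. No gene of the 9 was separated from Melphalan in either comparison, where 14.3% and 33.5% of all genes were. For Igha the fitted log2 value was -1.08 for Mel+MSC (95% confidence interval -2.61 to 0.45) and 0.33 for MSC+Mel (-1.20 to 1.86), and both intervals include 0. Without Melphalan 1 these values were -2.08 (adjusted p = 0.0868 in limma) and -0.68, and without Melphalan 2 they were -0.54 and 0.86, so 1 Melphalan library turned the sign for MSC+Mel. Leaving out any other library of these groups gave -1.14 to -0.61 for Mel+MSC and 0.13 to 0.79 for MSC+Mel. Both comparisons share the Melphalan libraries. The 159 genes called over all in MSC+Mel against Melphalan became 6 without MSC+Mel 2 and 401 without Melphalan 2. In MSC+Mel against Control, 0 of 9 were called (0.171% of all genes), and Mzb1 and Iglc2 lay below Control in all 3 libraries, 2 of 9 genes where 14.4% of all genes did so. Igha stood at -0.54 (-2.07 to 0.99) and Igkc at -0.08 (-1.84 to 1.69) there. A moderated F test over the 4 groups passed 0 of 9 genes where 0.576% of all passed, with Jchain (adjusted p = 0.307 in limma) and Igha (adjusted p = 0.331) the lowest and Pigr the highest (adjusted p = 0.989). Weighting the libraries by limma's array weights called 3 of the 9 in Mel+MSC against Melphalan (Igha, Jchain and Tnfrsf17), where 17.8% of all genes were called, and 4 in MSC+Mel against Mel+MSC (these and Igkc), where 39.3% were. It called 4 in the F test, where 55.8% were, and its estimate of the weights stopped before it converged.

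**Figure D2:**
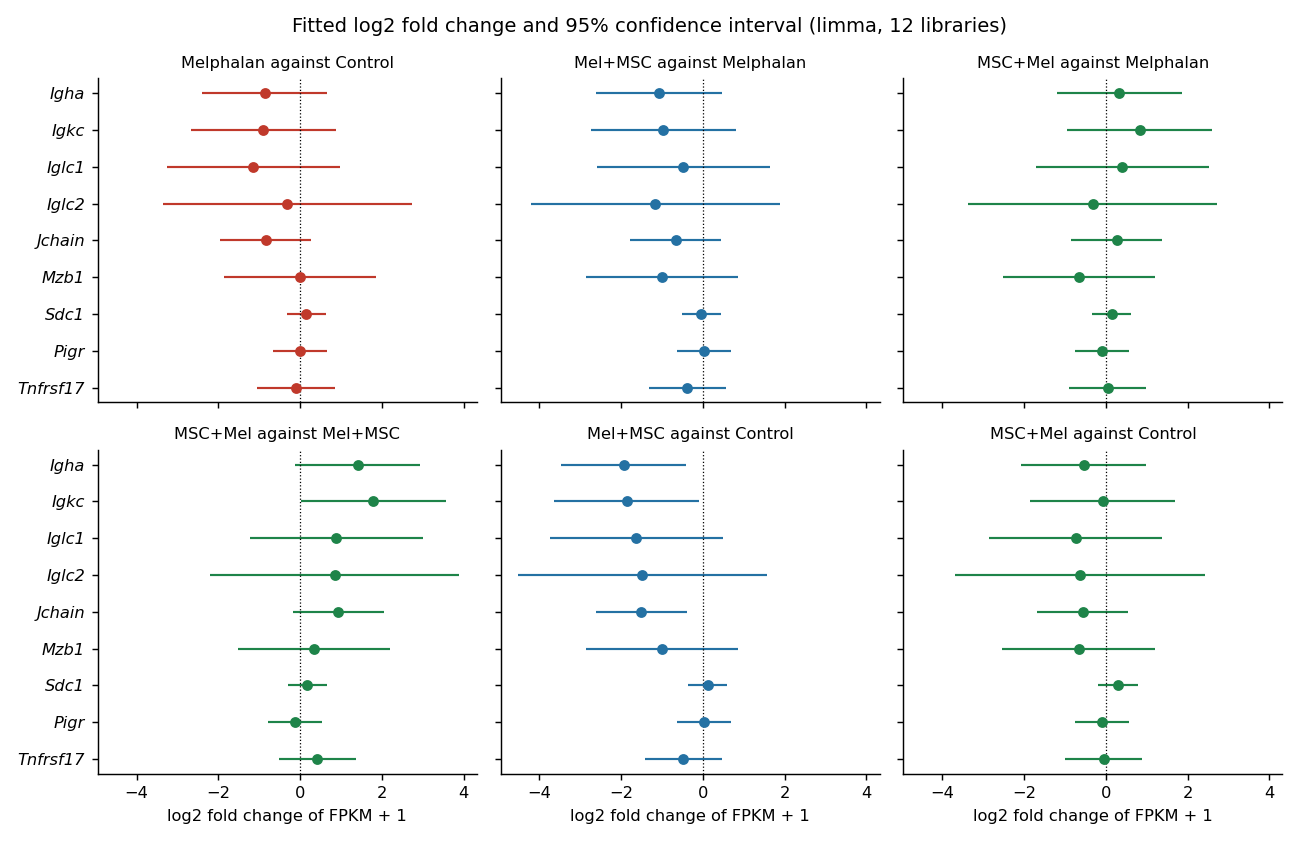
Fitted log2 fold change of FPKM + 1 (horizontal axis) with its 95% confidence interval for each of the 9 genes in 6 comparisons, from limma over 12 libraries. The intervals of Igha, Igkc and Jchain lie below 0 in Mel+MSC against Control, that of Igkc lies above 0 in MSC+Mel against Mel+MSC, and those of Pigr and Sdc1 are narrow and include 0 in all 6.

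Pigr was fitted between -0.12 and 0.03 in the 6 comparisons, with an interval of -0.66 to 0.66 in Melphalan against Control. The sign of these small values turned with the scaling: in MSC+Mel against Mel+MSC the fitted value was -0.12 as deposited, 0.36 after quantile normalization, and 0.19 when each library was divided by its sum without immunoglobulin rows. That last scaling also moved the median of all genes, to 0.24 in this comparison and to 0.30 in MSC+Mel against Melphalan. Under the 3 other scalings Igha kept values of -2.13 to -1.94 in Mel+MSC against Control and of 1.41 to 1.77 in MSC+Mel against Mel+MSC. Of these, median-of-ratios rescaling hardly changed the deposited values (Igha 1.406 beside 1.405 in MSC+Mel against Mel+MSC), so it adds little.

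Igha made up nearly all heavy chain constant region FPKM in most libraries. Its share was 98.5% to 99.7% in 8 libraries, 94.4% in Control 2, 82.1% in MSC+Mel 1, 74.6% in Mel+MSC 2 and 65.1% in Melphalan 2. In these last 4 libraries the rest was mainly Ighm, the heavy chain of IgM, and the IgG chains. Ighm stood at 572 FPKM in Melphalan 2 and 88.9 in Mel+MSC 2, beside 1.24 to 25.6 in the 8 others. The same 4 libraries held the highest mean of 10 B cell and follicle markers, 2.18 (Control 2), 2.37 (MSC+Mel 1), 3.03 (Mel+MSC 2) and 5.73 (Melphalan 2) on the scale log2(FPKM + 1), beside 0.26 to 0.55 in the others. Ms4a1, which encodes CD20, stood at 7.75, 5.86, 8.98 and 58.3 FPKM in them and at 0.0251 to 0.275 elsewhere, and Cr2, a receptor of follicular cells, stood at 1.498, 2.57, 4.02 and 41.5 beside 0.0574 or less. Each group holds 1 such library.

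**Figure D3:**
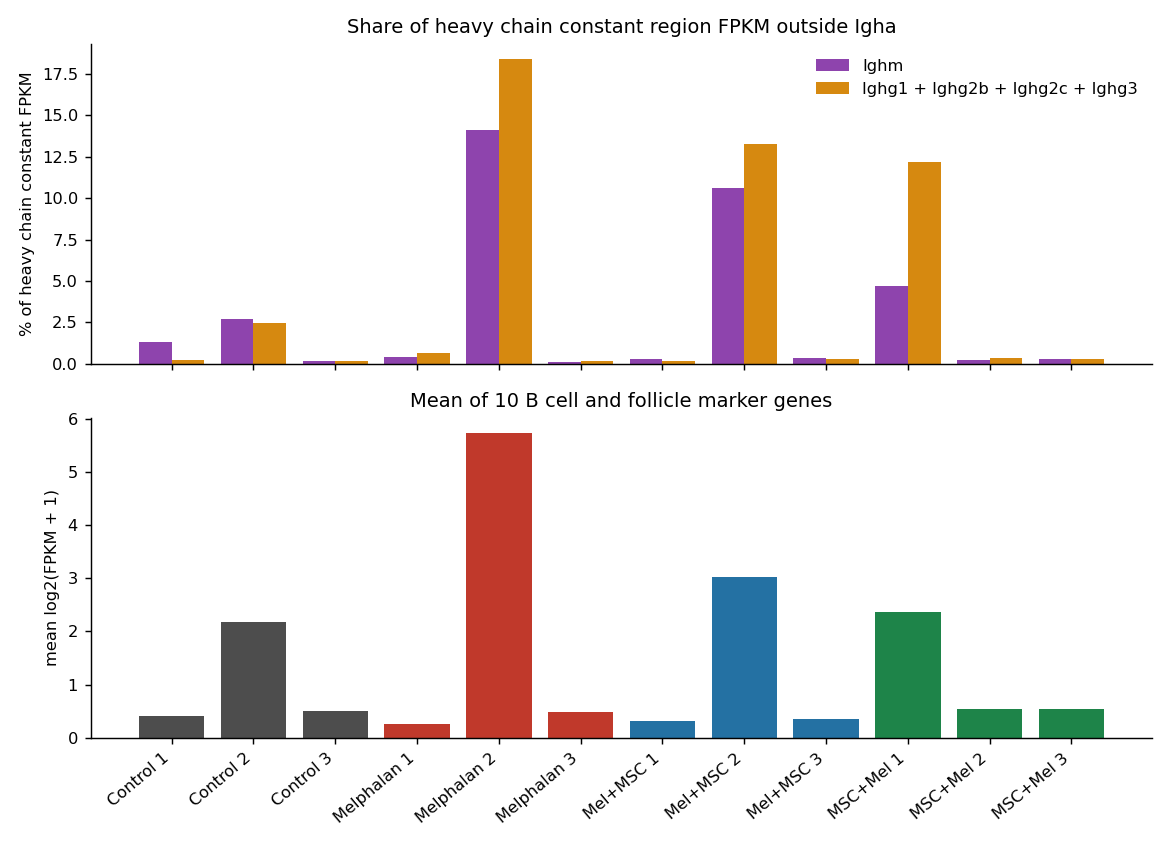
Upper panel: percent of summed heavy chain constant region FPKM in Ighm and in the 4 IgG genes by library. Lower panel: mean log2(FPKM + 1) of 10 B cell and follicle markers by library, coloured by group; the libraries with 2.18 or more below are those with over 2 percent in both classes above.

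The plasma cell genes did not divide alike over these libraries. The ratio of Mzb1 to Jchain, chosen after its values were seen, was 0.0286 to 0.113 in the 4 libraries with B cell markers and 0.0123 to 0.0210 in the 8 others. Left out together, as an alternative chosen after seeing the data, these 4 libraries took Igha in Mel+MSC against Control to -2.19 and in MSC+Mel against Mel+MSC to 1.82 (1.815), and 0 of the 9 genes were called in any comparison. Mzb1 in Melphalan against Control then stood at -1.09 in place of -0.01. Sdc1, beside the epithelial marker Epcam, gave a ratio of 0.0266 ± 0.000925 in MSC+Mel and of 0.0184 to 0.0197 as means of the other groups. MSC+Mel was separated from Melphalan and Mel+MSC in this ratio (exact permutation p = 0.1 in each) and overlapped Control. Sdc1 itself overlapped in every comparison. Mean Epcam was 796.5 FPKM in MSC+Mel, beside 897.7 in Control, 1069 in Melphalan and 1025 in Mel+MSC.

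Variable segments offer separate rows of the same transcripts. The table holds 348 of them, 185 heavy, 160 kappa and 3 lambda, and 173 were tested. Their summed FPKM was 4067, 3404 and 5976 in Control, 299.1, 12670 and 5115 in Melphalan, 553, 2342 and 1532 in Mel+MSC, and 3810, 8052 and 8791 in MSC+Mel. All Mel+MSC sums lay below all Control and all MSC+Mel sums, as for Igha, and Melphalan again held both ends. The rows at 1 FPKM or more numbered 60 in Melphalan 1, 193 in Melphalan 2, from 87 up to 152 in Mel+MSC, from 149 up to 157 in Control and from 153 up to 170 in MSC+Mel. Short rows and shared sequence make single segments uncertain, so they are given by count.

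No segment was called in any comparison. In MSC+Mel against Mel+MSC 171 of 173 were fitted above 0 (median log2 2.07). Of the 173, 58 had an unadjusted p under 0.05 in limma, where 12.2% of all genes had. In Mel+MSC against Control 165 were fitted below 0 (median -1.47), and 21 of the 173 had an unadjusted p under 0.05 in limma, where 5.4% of all genes had. These rows come from the same libraries, so such counts are not counts of separate tests. A row was tested if 3 or more libraries of any group reached 1 FPKM. Fewer rows reached that level in Mel+MSC libraries (87, 152 and 109) than in MSC+Mel libraries (153, 162 and 170). A row could thus be tested through its MSC+Mel libraries alone, and the part of this filter in the counts was not tested. In MSC+Mel against Control the segments had a median of 0.61, while Igha stood at -0.54 and Igkc at -0.08. The ratio of summed variable to summed constant FPKM, chosen after its values were seen, was 1.03, 1.24 and 1.25 in MSC+Mel and 0.816, 0.641 and 0.567 in Control, with no overlap. It was 0.400, 1.21 and 0.800 in Melphalan and 0.379, 0.912 and 0.936 in Mel+MSC, so those groups overlapped Control.

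The repertoire was spread over many rows. The highest row of a library held 5.61% to 11.2% of the summed segment FPKM, and the 5 highest held 20.7% to 30.8%. Iglv1, a lambda segment, was the highest on average and the highest row in 8 libraries, at 313, 179 and 591 FPKM in Control, 12.3, 808 and 303 in Melphalan, 61.7, 188 and 82.6 in Mel+MSC, and 214, 288 and 522 in MSC+Mel. The kappa segments Igkv1-117, with a mean of 223 FPKM over 12 libraries, and Igkv10-96, with 218, came next, and both were lowest in Melphalan 1 (6.21 and 21.6 FPKM).

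**Figure D4:**
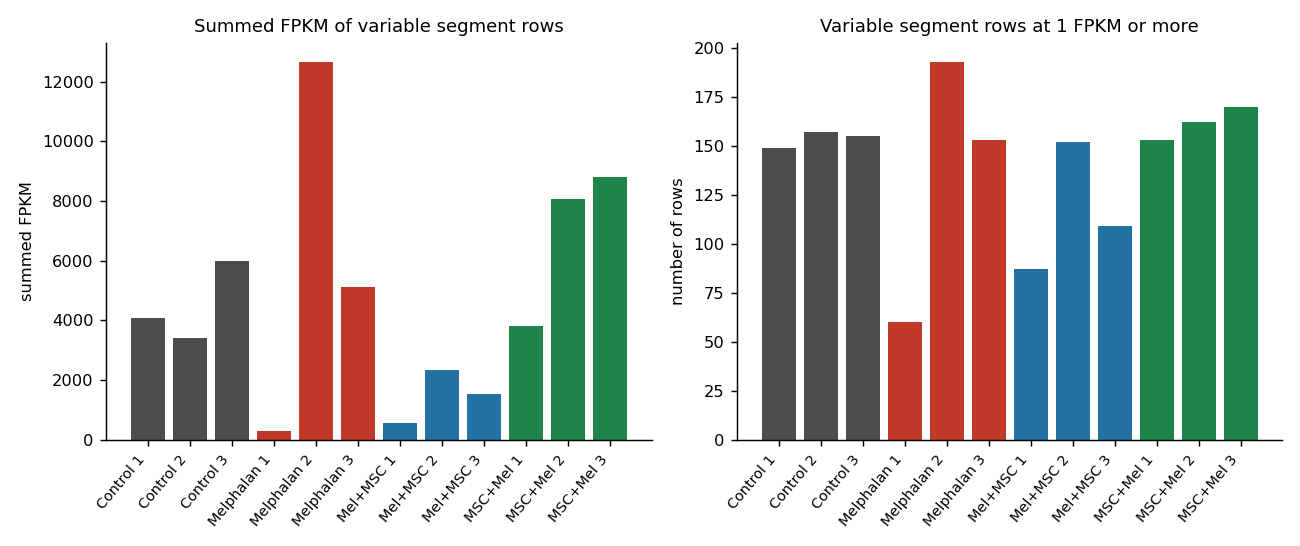
Left: summed FPKM of 348 variable segment rows by library. Right: number of these rows at 1 FPKM or more. Melphalan 1 (299.1 FPKM, 60 rows) and Melphalan 2 (12670 FPKM, 193 rows) are the ends of both panels, and the Mel+MSC sums lie below those of Control and MSC+Mel.

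Ratios within a library do not depend on its scaling. Igha to Pigr was 1.65, 1.61 and 2.07 in Control, 0.178, 2.38 and 2.14 in Melphalan, 0.368, 0.608 and 0.402 in Mel+MSC, and 0.811, 1.79 and 1.48 in MSC+Mel. Mel+MSC (0.460 ± 0.130) lay below Control (1.78 ± 0.252) and below MSC+Mel (1.36 ± 0.5) in all libraries, each with p = 0.1 in a two-sided exact permutation test, the smallest p that 3 against 3 allows. No ratio in these tests, 6 ratios in 6 comparisons, could therefore pass 0.05. Jchain to Igha ranged from 0.238 to 0.598 and Igkc to Igha from 1.14 to 2.57, with Igkc to Igha higher in all MSC+Mel libraries (2.34 ± 0.251) than in Control (1.70 ± 0.260, exact permutation p = 0.1). Lambda to kappa, the summed Iglc1, Iglc2 and Iglc3 over Igkc, was 0.036 to 0.0692 in MSC+Mel and 0.0800 to 0.123 in Mel+MSC, without overlap (exact permutation p = 0.1). Pigr to Epcam ranged from 0.856 to 1.72, and its groups overlapped in every comparison.

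In all, 5 relations were computed across the 12 libraries, on the log2 scale, with 100000 permutations each and adjustment over the 5. Igha went with Igkc (Pearson r = 0.956, adjusted permutation p = 5e-05, Spearman rho = 0.944, adjusted p = 0.00015) and with Jchain (r = 0.967, adjusted permutation p = 5e-05, rho = 0.867, adjusted p = 0.0012). Without Melphalan 1 and Mel+MSC 3, the libraries farthest from the median of Igha, r was 0.916 and 0.982. With the group means removed it was 0.951 and 0.948, pooled over the 4 groups. These pooled values do not hold for each group. In Mel+MSC libraries 1 to 3 Igha fell (642, 624 and 516 FPKM) while Jchain rose (214, 220.0 and 308), and Igkc was lowest where Igha was highest. Igha with Mzb1 gave r = 0.645 (adjusted permutation p = 0.0309) and rho = 0.497 (adjusted p = 0.174), and r = 0.430 (permutation p = 0.229) without the same 2 libraries, on which the relation rests. Igha with Pigr gave r = -0.26 (adjusted permutation p = 0.411) and rho = -0.02 (-0.021, adjusted p = 0.991), and r = 0.0625 without those libraries. Pigr with the mean of the epithelial markers gave r = 0.285 (adjusted permutation p = 0.411) and rho = 0.00699, and r = 0.00972 without Control 3 and Mel+MSC 1.

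**Figure D5:**
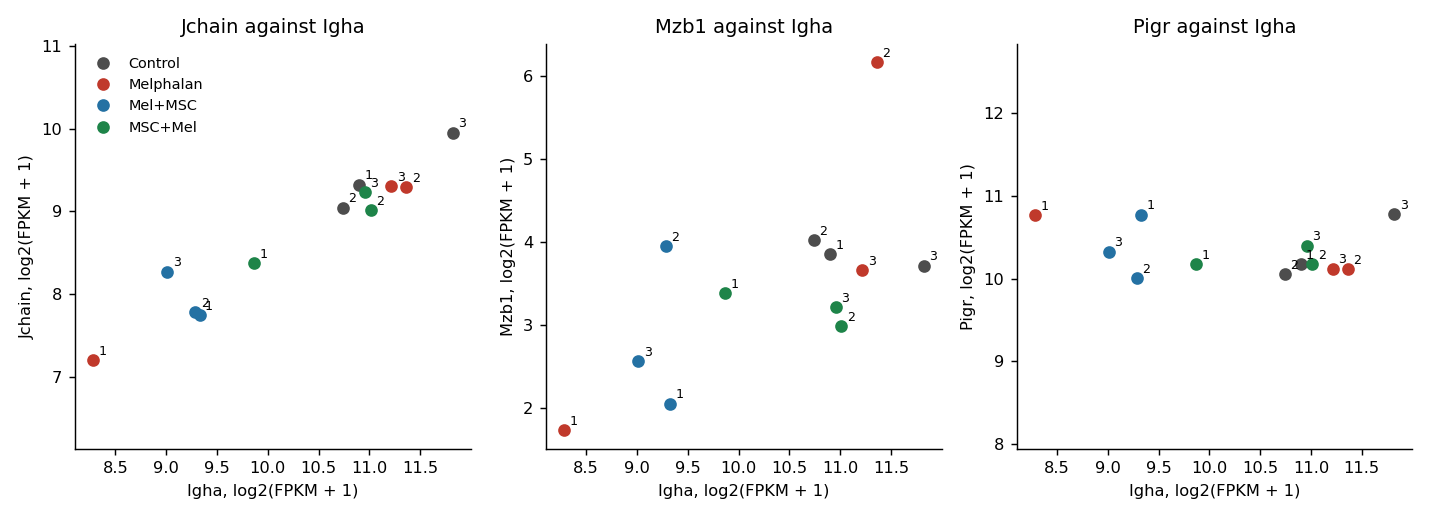
Jchain, Mzb1 and Pigr (vertical axes, log2(FPKM + 1), all with the same span) against Igha (horizontal axis) in 12 libraries, coloured by group and numbered by replicate. Jchain follows Igha closely (r = 0.967), Mzb1 loosely with Melphalan 2 far above the rest, and Pigr stays within a narrow band.

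The tested genes outside the immunoglobulin loci whose levels were most like Igha over the 12 libraries were Jchain (r = 0.967), Igfbp3 (0.926), Gbp6 (0.924), Ccr10 (0.904) and Apol7c (0.890). Those most like Jchain were Gbp6 (0.941), Zfp592 (0.926), Ccr10 (0.918), Igfbp3 (0.902) and Itgae (0.877). Ccr10 encodes the receptor by which IgA plasma cells follow the chemokine CCL28, and Itgae encodes the integrin CD103 of intraepithelial lymphocytes. Both rows are low, with 0 to 1.85 FPKM for Ccr10 and 0.259 to 3.13 for Itgae over the 12 libraries. Among those most like Pigr were Cyp2c68 (0.875), Gm43579 (0.848), Gm34150 (0.829) and Prkag2 (0.826). For Gm43579 the Spearman rho was only 0.380, and these correlations were picked as the highest among the genes tested, so they describe likeness in these libraries.

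The other genes of the pathway were counted by list. Of the list on induction and transport of Pigr, 26 of 30 genes were tested and 1 was called in 1 of the 6 comparisons. Rab25, a small GTPase of recycling endosomes in epithelial cells, stood at 62.7, 58.3 and 44.5 FPKM in Control, 26.0, 25.2 and 38.5 in Melphalan, 38.1, 51.0 and 53.9 in Mel+MSC, and 63.2, 71.2 and 77.0 in MSC+Mel. It was higher in MSC+Mel than in Melphalan in all libraries, where 33.5% of all genes were separated in either direction. Its log2 value was 1.23 (SE 0.22, adjusted p = 0.0312 in limma), a call that 1.24% of all genes also had. The call was lost in 7 of 16 alternatives, with values of 0.96 to 1.66 in all 16. Among the 7 were leaving out Melphalan 1 (adjusted p = 0.0885), MSC+Mel 1 (0.113), MSC+Mel 2 (0.141) or MSC+Mel 3 (0.139), and the replicate block (0.0748). Its values in Melphalan against Control were -0.87 (SE 0.22, adjusted p = 0.0769). The list's median was -0.29 in MSC+Mel against Melphalan, beside -0.05 over all genes, with 7 genes fitted above 0 and 19 below.

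Of the plasma cell regulators and secretory factors 22 of 23 genes were tested, and 0 were called in any comparison. The list did not follow Igha: in Mel+MSC against Control 13 genes were fitted above 0 and 9 below (median log2 0.02). In MSC+Mel against Mel+MSC 11 were fitted above 0 and 11 below (median -0.05). Prdm1, the repressor BLIMP1 that drives plasma cell identity and is also made by epithelium, stood at 1.41 to 1.45 FPKM in Control and 2.21 to 3.005 in Melphalan (log2 0.54, SE 0.16, adjusted p = 0.118 in limma). Fkbp11, a secretory pathway foldase, stood at 3.599 to 8.19 and 2.27 to 3.50 FPKM (-0.66, SE 0.34, adjusted p = 0.329). Of the genes of IgA induction, survival and homing 16 of 22 were tested, with 0 called. Ccl28, the epithelial chemokine that draws IgA plasma cells, had 44.3, 26.3 and 30.7 FPKM in the Control libraries and 19.7, 12.02 and 12.1 in those of Melphalan (log2 -1.16, SE 0.29, adjusted p = 0.0791 in limma). These libraries did not overlap, as was so for 19.5% of all genes tested. Nos2, the inducible nitric oxide synthase, stood at 1.33 to 11.96 and 10.8 to 26.9 FPKM (1.76, SE 0.82, adjusted p = 0.288).

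Of the other immunoglobulin constant regions 7 of 9 were tested, with 0 called in any comparison. Ighg1 and Ighg2c, IgG heavy chains, reached 33.7 and 88.8 FPKM in Melphalan 2 and stood at 0 to 1.05 and 1.37 to 1.66 in the other Melphalan libraries (log2 1.33 and 1.29 in Melphalan against Control, adjusted p = 0.611 and 0.676 in limma). Of 14 B cell genes 13 were tested and 0 called, with a median log2 of 1.06 in Melphalan against Control. Cd22 and Bank1, a surface receptor and an adaptor of B cells, stood at 44.9 and 19.6 FPKM in Melphalan 2 and at 0.0396 to 1.10 and 0.340 to 0.411 in the other Melphalan libraries.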

How the data were processed

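RNA was sequenced from mouse small intestine in 12 libraries, 3 in each of 4 groups, and the groups were taken from the treatment labels. RNA extraction used a QIAGEN AllPrep kit and library construction a TruSeq RNA kit, per the labels' protocols. The strand setting is not given in the sources used here. Per the submitters' processing notes, the authors used STAR, Cufflinks and Cuffnorm and the builds mm10 and GRCm38, and versions are not given. The authors deposited 1 table of FPKM values, each of whose 12 columns was matched to a label (0 columns not mapped). Depth cannot be read from these values, so no counting interval is given. Coordinates are from GENCODE M21, which held 99.4% of the gene identifiers.

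A gene was tested if 3 or more libraries reached 1 FPKM, which kept 12847 of 55484 genes and all 9 described. Values were taken as log2(FPKM + 1) and fitted by limma 3.58.1 (R 4.3.3) with every library in the same model, an intensity trend and 8 residual degrees of freedom. P-values were adjusted over all genes tested. Ratios and correlations were computed in Python 3.11.15 with scipy 1.17.1. The fit was tested on simulated data for Melphalan against Control, with 50 genes changed at each size. It recovered 4% of true log2 changes of 0.5, 42% of 1 and 90% of 2, with 5 false calls among 121. A gene not called may therefore have changed. Recovery for the 9 genes themselves was not tested, so these percentages are not given for them. Their SE in Melphalan against Control ran from 0.22 (Sdc1) to 1.39 (Iglc2), with 0.70 for Igha. Same-numbered libraries went together throughout only in Control and Melphalan. There the deviations of all 3 same-numbered pairs from their group means correlated over 0.1 (0.124 to 0.233). The replicate block, an alternative, was nevertheless fitted over all 12 libraries, and so paired all 4 groups by replicate number. The labels give no reason for such a pairing. The alternatives were other pseudocounts, filters, scalings and weights, a replicate block, leaving out each library, and leaving out 4 libraries with B cell markers.

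The 9 genes, the lists and the rule for naming genes were chosen with earlier results of these data known. The rule names all 9, list genes called in any comparison or otherwise the 2 with the smallest p in Melphalan against Control, the 5 most alike genes of Igha, Jchain and Pigr, and the 3 highest variable segments. A gene that the rule also names for Pigr is not reported here. Other genes named, among them Ighm, Ms4a1, Cr2 and Epcam, were chosen after their values were seen.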

Additional observations from a re-analysis of the deposited data

How the results depend on the processing

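Over 110 counts of the 9 genes under 21 settings other than array weights, 0 genes were called, with a smallest adjusted p of 0.0868. With limma's array weights, 3 were called in Mel+MSC against Melphalan, 4 in MSC+Mel against Mel+MSC and 4 in the F test over the groups, where 17.8%, 39.3% and 55.8% of all genes tested were called too. The weights ran from 0.182 (Mel+MSC 3) to 5.13 (Mel+MSC 2), and their estimation stopped before it converged. Of 858 fitted values under the alternatives, 94 changed sign without a call, 30 of them for Pigr, and 0 called values reversed. Same-numbered libraries deviated together in Control and Melphalan (3 of 3 correlations over 0.1) and not throughout in the 5 other pairs of groups (0 to 2 of 3 over 0.1, range -0.369 to 0.396). With the replicate block 0 of the 9 genes were called in every comparison, and the count over all genes was 73 in place of 171 in Melphalan against Control and 20 in place of 159 in MSC+Mel against Melphalan. Leaving out 1 library at a time moved these counts between 9 and 420 and between 6 and 401. Sdc1 to Epcam in MSC+Mel moved to 0.0278 with 1 FPKM added to both. At 5 FPKM or more, Mel+MSC held 60.7 variable segment rows per library in place of 116. The other groups fell too, to 114.7 from 153.7 in Control, 100.3 from 135.3 in Melphalan and 131.0 from 161.7 in MSC+Mel. Without the 2 libraries farthest in Igha, the relation with Mzb1 weakened to r = 0.43 and that with Pigr moved to 0.0625. The cause was not tested. Depth is unknown, so the counting error of the low genes Tnfrsf17 and Iglc2 cannot be given.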
